A study of Mus musculus with 24 samples.

Results

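The cathepsins described here were 10 genes, Ctsa, Ctsb, Ctsc, Ctsd, Ctsf, Ctsh, Ctsk, Ctsl, Ctss and Ctsz, taken by symbol from a table of 36333 genes. All 10 were found and all 10 passed the filter on low values that left 17267 genes for testing. The table came from polyA-selected RNA of lesional and perilesional brain tissue, taken 5 days after a controlled cortical impact (CCI), a model of traumatic brain injury (TBI), and held 24 libraries of 1 mouse each. All mice were male, and the labels give an age of 12 to 16 weeks and the strain as C57BL6N, whereas the methods of the study name another C57BL/6 substrain. Injured mice received vehicle (Vehicle, n = 5), PLX3397 (n = 5), Anakinra (n = 5) or PLX3397+Anakinra (n = 5). PLX3397, an inhibitor of the colony stimulating factor 1 receptor on which microglia depend, was given in chow at 290 mg/kg from 90 min after injury. Anakinra, an antagonist of the interleukin 1 receptor, was injected under the skin at 100 mg/kg at 5 min, 24, 48 and 72 h. Sham mice (n = 4) had the skin incision without craniotomy or impact and received vehicle. The labels call the tissue cortex, while markers of cortex, striatum, thalamus and hippocampus (Tbr1, Ppp1r1b, Drd1, Tcf7l2 and Prox1) were all tested. Their summed levels were 633 to 1069 TPM per library, mostly from Ppp1r1b. In sham mice Ppp1r1b had 669.5 TPM, Tbr1 75.3, Drd1 46.8, Tcf7l2 28.3 and Prox1 16.3 TPM.

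Cathepsins are proteases that mature in the acid interior of lysosomes, where they break down proteins delivered by endocytosis, phagocytosis and autophagy. Ctsd is an aspartic protease, Ctsa a serine carboxypeptidase that also protects other lysosomal enzymes, and the remaining members are cysteine proteases. In the brain, microglia and macrophages are rich in several of them, and Ctss in particular trims the invariant chain of MHC class II in antigen-presenting cells. Ctsk is best known as the collagen-degrading enzyme of osteoclasts and is also made by activated fibroblasts.

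The deposited values are named TPM (transcript abundance per library), a unit scaled by transcript length and by library. The methods of the study add that its software calls this unit CPM. Scaling by length was not checked here, and levels set side by side between genes rest on it. Differences are on the log2(TPM + 1) scale with their standard error (SE), and a gene is called at an adjusted p below 0.05 in limma, with Benjamini-Hochberg adjustment over all 17267 genes. Among the 10 cathepsins, 9 differed over the 5 groups in the F-test, against 51.9% of all genes tested, and Ctsf did not (adjusted p = 0.47).

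In sham brain, the summed level of the 10 genes was 1371 ± 29.3 TPM (SD, n = 4), or 0.137% of the library. In vehicle-treated TBI mice it was 8720 ± 1170 TPM (SD, n = 5), or 0.872%. PLX3397 mice had 5055 ± 829 TPM, Anakinra mice 8297 ± 666 TPM and PLX3397+Anakinra mice 4100 ± 456 TPM (SD, n = 5 each). Ctsd had the largest share of this sum, at 38.9% ± 0.88 of it in sham mice and 62.1% ± 0.26 in vehicle mice. By its mean over all libraries, Ctsd ranked 8 among the 17267 genes, whereas Ctsc, the least abundant member, ranked 10225.

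**Figure D1:**
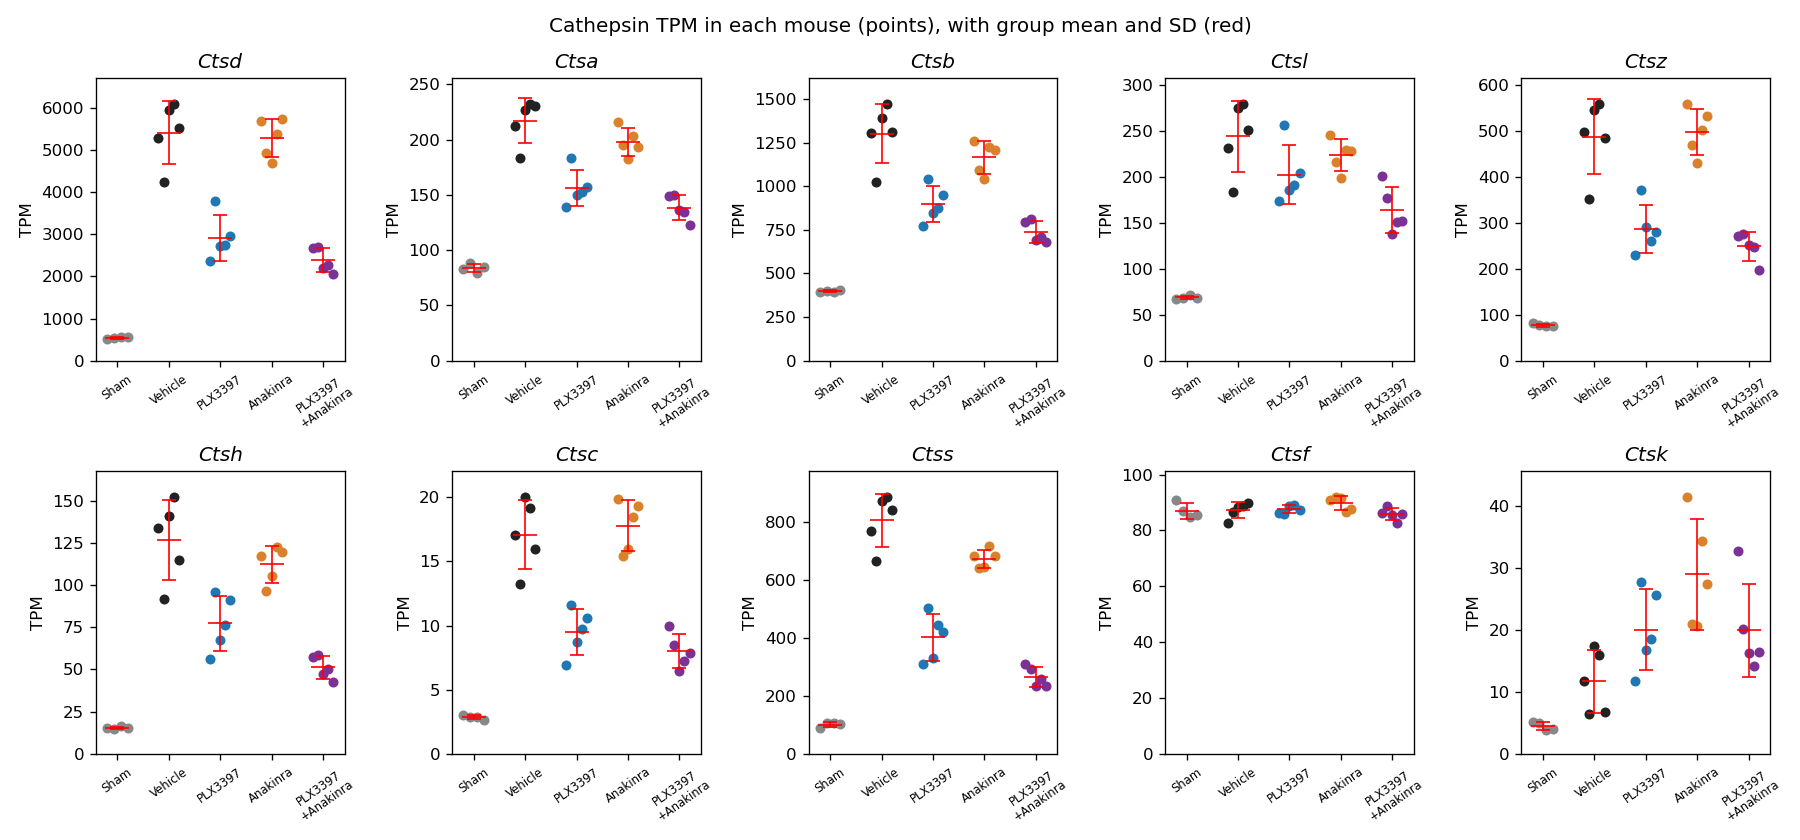
Level of each cathepsin (TPM, linear axis from 0) in every mouse, by group; each point is 1 mouse and the red bars give the mean and SD. In 8 panels the PLX3397 and PLX3397+Anakinra mice have lower means than the vehicle mice, Ctsf is level across groups, and Ctsk is lowest in sham and highest in Anakinra mice.

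The comparison of vehicle with sham mice asks what the injury did, and since sham mice had no craniotomy, impact and craniotomy cannot be told apart. The injury raised 9 of the 10 cathepsins, against 26.6% of all genes called higher in this comparison. In the same 9 genes every vehicle mouse lay above every sham mouse, a separation seen in the higher direction for 21.7% of all genes. Ctsd, the main aspartic protease of the lysosome, rose from 533.1 ± 22.7 TPM to 5420 ± 739 TPM, a log2 difference of 3.33 (SE 0.11, limma adjusted p = 1.7e-17). Ctss rose from 100.6 ± 7.99 TPM to 807.9 ± 91.8 TPM, a log2 difference of 2.99 (SE 0.11, limma adjusted p = 1.47e-16). Ctsh, an aminopeptidase, rose by 2.95 on the log2 scale, and Ctsz, a carboxypeptidase, by 2.63. Ctsc, the dipeptidyl peptidase that activates granule serine proteases, rose by 2.22. The endopeptidases Ctsl and Ctsb rose by 1.79 and 1.70, and Ctsa rose by 1.36. Ctsk rose least of those called, from 4.46 ± 0.654 TPM to 11.7 ± 5.04 TPM, a log2 difference of 1.12 (SE 0.28, limma adjusted p = 0.00132).

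Ctsf, a cysteine protease of broad tissue distribution, stood apart from the others. Its mean was 87.0 ± 2.74 TPM in sham, 87.3 ± 2.83 in vehicle, 87.5 ± 1.43 in PLX3397, 89.8 ± 2.41 in Anakinra and 85.8 ± 2.26 TPM in PLX3397+Anakinra mice. All group ranges overlapped, and the log2 difference between vehicle and sham had a 95% confidence interval of -0.06 to 0.07. In sham brain its level was close to that of Ctss, at 100.6 TPM, and in vehicle mice Ctss was at 807.9 TPM.

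The injury effect was also present under each treatment. Compared with sham, 9 cathepsins were called higher in PLX3397 mice (22.7% of all genes), 9 in Anakinra mice (25.1%) and 9 in PLX3397+Anakinra mice (20.7%), with Ctsf the exception each time. These comparisons share the 4 sham libraries.

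The comparison of PLX3397 with vehicle asks what giving this drug did after injury. Of the 10 cathepsins 7 were called lower, against 6.66% of all genes, and 4 of them did not overlap between the groups, against 4.91% of all genes in that direction. Ctss was 770, 665, 875, 888 and 841 TPM in the vehicle mice and 310, 504, 332, 447 and 421 TPM in the PLX3397 mice. The groups were fully apart, with a log2 difference of -1.02 (SE 0.11, limma adjusted p = 2.53e-07). Ctsd was 5286, 4236, 5964, 6096 and 5516 TPM in vehicle and 2361, 3800, 2712, 2737 and 2969 TPM in PLX3397 mice. These too did not overlap, and the log2 difference was -0.90 (SE 0.11, limma adjusted p = 1.24e-06). Ctsc fell by 0.79, Ctsz by 0.77, Ctsh by 0.71, Ctsb by 0.53 and Ctsa by 0.47 on the log2 scale. Ctsl did not pass, at -0.27 (SE 0.11, limma adjusted p = 0.124), with 183.7 to 279.0 TPM in vehicle and 173.4 to 256.0 TPM in PLX3397 mice. Without vehicle mouse J17B the Ctsl difference was -0.36 (limma adjusted p = 0.0141), and without PLX3397 mouse J02 it was also past the threshold (limma adjusted p = 0.0269). In bulk tissue, fewer cells of a type and less RNA per cell cannot be told apart.

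After Anakinra alone, no cathepsin was called lower, against 0.0463% of all genes, and 1 was called higher, Ctsk, against 0.0695%. In the higher direction Ctsk was also the only member without overlap, against 1.14% of all genes. Among the remaining 9, the differences ran from -0.25 for Ctss to 0.06 for Ctsc, and Ctss alone had an unadjusted p below 0.05. Ctsd was 5688, 4929, 4695, 5395 and 5734 TPM in Anakinra mice, within the range of the vehicle mice, and its log2 difference had a 95% confidence interval of -0.25 to 0.19. For Ctss the interval was -0.47 to -0.03, with 641 to 718 TPM in the Anakinra mice. An effect of that size was not called in this fit (limma adjusted p = 0.321).

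With both drugs, 8 cathepsins were called lower than in vehicle, against 9.6% of all genes, and 7 of these did not overlap, against 6.62%. Ctss was 311, 292, 235, 257 and 233 TPM in PLX3397+Anakinra mice, a log2 difference of -1.60 from vehicle (SE 0.11, limma adjusted p = 1.27e-10). Ctsh was 42.7 to 58.8 TPM after 91.9 to 152 TPM in vehicle mice, a log2 difference of -1.27 (SE 0.13, limma adjusted p = 4.48e-08). Ctsd fell by 1.18, Ctsc by 1.00, Ctsz by 0.96, Ctsb by 0.81 and Ctsa by 0.64 on the log2 scale. Ctsl fell by 0.57 (limma adjusted p = 0.000409), with an overlap between the groups. All 8 stayed above sham in every mouse.

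**Figure D2:**
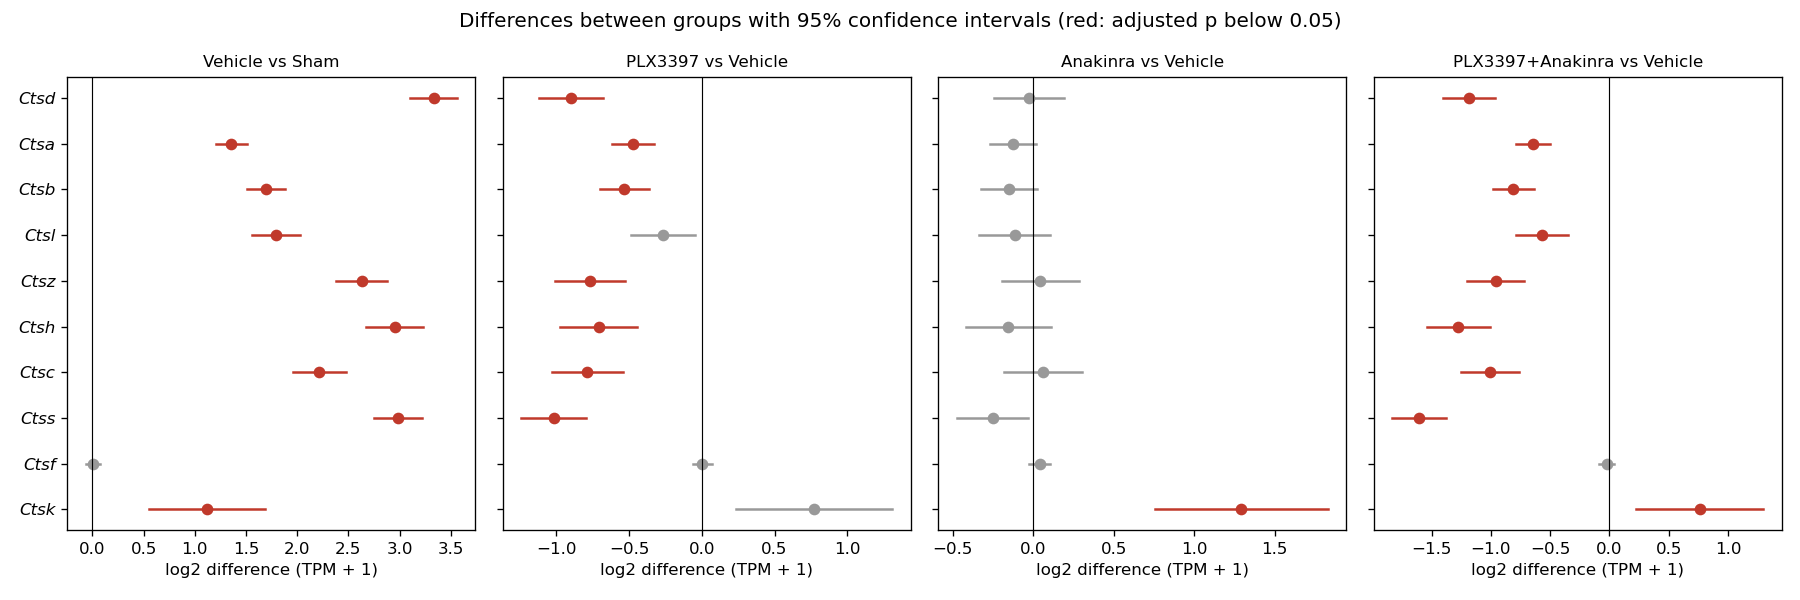
Log2 difference in TPM + 1 between groups for each cathepsin (points) with 95% confidence intervals (bars); red marks an adjusted p below 0.05 and each panel has its own axis. Ctsk lies to the right of 0 in all 4 panels, while Ctss has the most negative difference after PLX3397 (-1.02) and after PLX3397+Anakinra (-1.60).

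Adding PLX3397 to Anakinra was tested by comparing the combination with Anakinra alone, where 8 cathepsins were called lower (8.1% of all genes) and 7 did not overlap (7.26%). Between the single drugs, 7 were called lower after PLX3397 than after Anakinra (5.41%), and 6 did not overlap (5.38%). Adding Anakinra to PLX3397 was tested by comparing the combination with PLX3397 alone. Here 1 cathepsin was called lower, against 0.145% of all genes. This was Ctss, at -0.59 (SE 0.11, limma adjusted p = 0.0142), with ranges of 233 to 311 TPM and 310 to 504 TPM that just met. The call was lost when PLX3397 mouse J02, J19 or J20 or PLX3397+Anakinra mouse J09, J10 or J17 was left out (limma adjusted p = 0.0542 to 0.0712). Ctsh had a difference of -0.57 (limma adjusted p = 0.0853). Ctsa, Ctsb, Ctsc, Ctsd, Ctsl and Ctsz had differences of -0.17 to -0.30. Ctsf was at -0.03, and Ctsk at -0.01 with a 95% confidence interval of -0.55 to 0.53.

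Whether Anakinra acted differently with and without PLX3397 was tested by the interaction term. No cathepsin passed, nor did any of the 17267 genes (0%), where the smallest limma adjusted p was 0.153. The unadjusted p was below 0.05 for 3 cathepsins, and the share of all genes below it is not given here. The value for Ctsk was -1.30 (SE 0.37, limma adjusted p = 0.367). Those for Ctsh and Ctss were -0.41 and -0.33.

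The rise over sham can be set against that of the vehicle mice. For Ctss, PLX3397 mice kept 42.7% ± 11.4 of the vehicle rise (SD, n = 5), Anakinra mice 81.1% ± 4.5 and PLX3397+Anakinra mice 23.3% ± 4.91. For Ctsd the shares were 48.8% ± 11, 97.3% ± 9.44 and 37.8% ± 5.86. For Ctsl they were 76.2% ± 18.3, 88.2% ± 9.93 and 54.1% ± 14.3. Leaving out Ctsf and Ctsk, Ctsl, which was not called lower after PLX3397 alone, had the largest mean share in both groups given PLX3397, and Ctss the smallest. For Ctsk the shares were above the vehicle rise, at 217% ± 91.2, 340% ± 125 and 215% ± 104. The SDs of all these shares cover the treated mice only and leave out the spread of the vehicle and sham mice. For Ctsk in vehicle mice that spread was wide, at 11.65 ± 5.04 TPM.

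Ctsk went the other way. It was 11.7, 6.47, 17.4, 15.9 and 6.78 TPM in the vehicle mice. In the Anakinra mice it was 41.4, 20.97, 20.5, 34.3 and 27.4 TPM, each above every vehicle mouse. The log2 difference was 1.29 (SE 0.26, limma adjusted p = 0.046). This call is close to the threshold: it was lost without vehicle mouse J01B, J17B or J20B or without any of the 5 Anakinra mice (limma adjusted p = 0.0515 to 0.154), while the difference stayed between 1.13 and 1.45.

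PLX3397 mice had 11.7, 27.7, 16.7, 18.5 and 25.6 TPM of Ctsk, overlapping with vehicle, a log2 difference of 0.77 (SE 0.26, limma adjusted p = 0.06). It passed without vehicle mouse J18B, vehicle mouse J19B or PLX3397 mouse J01 (limma adjusted p = 0.0304, 0.0414 and 0.0267). PLX3397+Anakinra mice had 32.7, 20.1, 16.3, 14.2 and 16.4 TPM, which also overlapped. Here the difference of 0.76 was called (SE 0.26, limma adjusted p = 0.0436, against 7.88% of all genes called higher), and it was lost without any 1 of 7 mice, vehicle J01B, J17B and J20B and PLX3397+Anakinra J03, J04, J09 and J17 (limma adjusted p = 0.0518 to 0.133). In the order of its means, Ctsk went from sham to vehicle, PLX3397+Anakinra, PLX3397 and Anakinra. The last 3 were not called different from each other and their ranges overlapped, with limma adjusted p values of 0.188 to 0.999. The 3 comparisons with vehicle share the same 5 vehicle libraries, and the study had itself listed Ctsk, Ctss, Ctsh, Ctsd and Ctsc as changed in these libraries, so the directions of these genes are not independent evidence.

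Set against Ctss in the same mouse, Ctsk was lower in every vehicle mouse than in any mouse of the other groups. There were 8.06 to 19.9 TPM of Ctsk per 1000 TPM of Ctss in vehicle mice and 36.7 to 58.2 in sham mice. In PLX3397 mice there were 37.8 to 60.9, in Anakinra mice 31.8 to 60.4 and in PLX3397+Anakinra mice 55.2 to 105 TPM per 1000. The ranges after Anakinra and after PLX3397 overlapped, although Ctss was lowered in the PLX3397 mice and was not called in the Anakinra mice.

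With Ctsc, Ctsd, Ctsh or Ctsz in place of Ctss, the vehicle mice also lay below all others. With Ctsa, Ctsb or Ctsl they lay below the treated mice but overlapped with sham, for Ctsa with log2 ratios of -5.09 to -3.70 in vehicle and -4.43 to -4.00 in sham mice. With Ctsf, the vehicle mice lay above sham and overlapped with the PLX3397 and PLX3397+Anakinra mice.

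**Figure D3:**
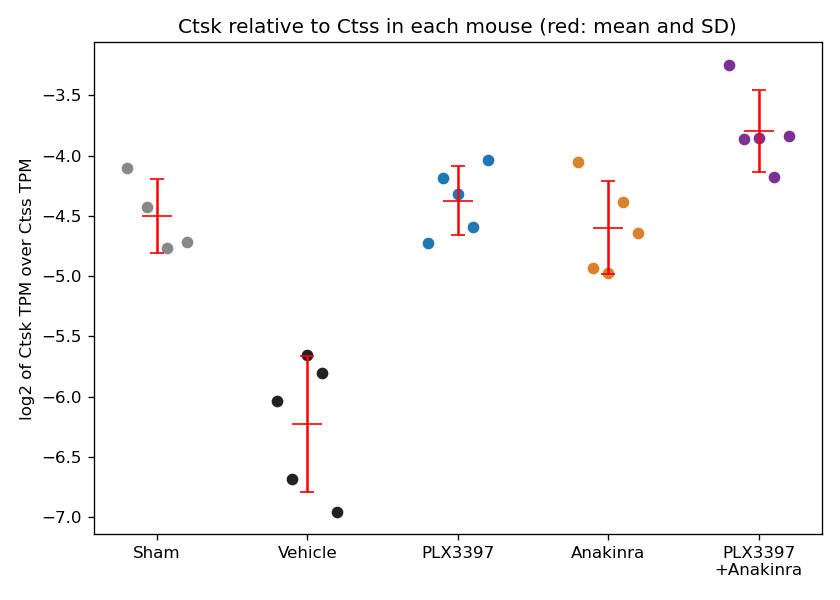
Log2 of Ctsk TPM over Ctss TPM in each mouse (points), by group, with the group mean and SD in red. The vehicle mice lie between -6.96 and -5.65, below every mouse of the other groups, and the PLX3397+Anakinra mice lie highest, between -4.18 and -3.25.

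Within groups the picture was another. With group means removed, the levels of Ctsk and the other members went up and down together from mouse to mouse, with a median Pearson r of 0.755 over 24 mice, and Ctsf alone was near 0 with the rest (median r of 0.0556). Vehicle mouse J17B was the lowest of its group in all 9 cathepsins other than Ctsf, and so was PLX3397 mouse J01. PLX3397 mouse J02 was the highest of its group in all 9. Genes measured in the same library share its tissue and scale, and these correlations carry no test.

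The genes most like each member over 24 mice were named by their Pearson r, which includes the differences between groups. For Ctss these were Cd53, Fcgr2b and C1qb (r = 0.996, 0.995 and 0.992), a leukocyte tetraspanin, an Fc receptor and a complement subunit. For Ctsd they were Mpeg1, Ifi30 and Gusb (r = 0.996 each), and for Ctsz they were Gusb, Tyrobp and Grn. Ctsa was closest to Trem2, Adgre1 and Fcer1g, Ctsb to Adgre1, Cd84 and Npc2, Ctsc to Lcp1, Adgre1 and Msr1, and Ctsh to Cd84, Mpeg1 and Ms4a6d. Ctsl was closest to Cd9, Lhfpl2 and Cd63. For Ctsk they were Col8a1, Lrrc15 and Thbs2 (r = 0.970, 0.967 and 0.961), a collagen, a membrane protein of activated fibroblasts and a matrix glycoprotein. Ctsf had no close partner, with r = 0.716 for Tma7 as its highest.

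Marker lists of the cell types that the tissue can hold moved with these groups. Over all genes, 6.66% were called lower after PLX3397, 9.6% after PLX3397+Anakinra and 0.0463% after Anakinra. Of 8 homeostatic microglia markers, 8 were called lower after PLX3397 and 8 after PLX3397+Anakinra, and 0 after Anakinra. Their summed level was 730 to 970 TPM in vehicle, 300 to 461 in PLX3397, 810 to 889 in Anakinra and 265 to 347 TPM in PLX3397+Anakinra mice. Csf1r, the receptor that PLX3397 blocks, was 226 ± 22.9 TPM in vehicle and 77.5 ± 5.67 TPM in PLX3397+Anakinra mice. Of 8 activated phagocyte markers, 7 and 8 were lower after PLX3397 and the combination, with Lyz2, a lysozyme of phagocytes, at a log2 difference of -2.42 in the combination. Their sum was 3747 to 8392 TPM in vehicle, 2607 to 4792 in PLX3397, 3668 to 5853 in Anakinra and 1390 to 2067 TPM in PLX3397+Anakinra mice. Of 7 border macrophage markers, 6 were lower in each, and Pf4 fell by 2.88 on the log2 scale in the combination. They summed to 75.7 to 157 TPM in vehicle, 34.5 to 69.7 in PLX3397, 73.5 to 108 in Anakinra and 13.6 to 20.6 TPM in PLX3397+Anakinra mice. The part of these cells in the cathepsin differences was not tested.

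Fibroblast markers moved with Ctsk. Of 8 markers, 6 were called higher after PLX3397, against 3.23% of all genes, and 6 after the combination, against 7.88%, with 1 (Pdgfra, which oligodendrocyte precursors also express) lower in each. None was called after Anakinra, where 7 had an unadjusted p below 0.05, a threshold for which the share of all genes is not given here. Postn had a log2 difference of 1.68 (limma adjusted p = 0.0569) and Col1a1 of 2.05 (limma adjusted p = 0.0968). The summed level was 68.8 to 76.98 TPM in sham, 121 to 753 in vehicle, 504 to 1216 in PLX3397, 838 to 1625 in Anakinra and 750 to 1292 TPM in PLX3397+Anakinra mice. The vehicle mice with the least Ctsk, J17B and J20B, were also the lowest in these markers. With group means removed, r between Ctsk and the summed fibroblast markers was 0.848, no higher than its r with the activated phagocyte (0.857) and border macrophage markers (0.873), and the r of the members other than Ctsk and Ctsf with the fibroblast sum was 0.492 (Ctss) to 0.788 (Ctsh). Within groups, Ctsk was thus not closer to fibroblast markers than to activated phagocyte or border macrophage markers, and its r with the homeostatic microglia sum was 0.658. With the differences between groups kept, over the 20 TBI mice, r of Ctsk with the fibroblast sum was 0.908. It was 0.019 with the activated phagocyte, 0.0112 with the border macrophage and -0.0116 with the homeostatic microglia sum. Osteoclast markers were scarce: of 8, 6 passed the filter, Ocstamp and Dcstamp did not, and the list summed to 12.98 to 32.9 TPM. Of those 6, 0 rose in any of the 3 comparisons with vehicle. After PLX3397 alone 2 fell, against 6.66% of all genes. In the combination 2 fell, Tnfrsf11a and Nfatc1, against 9.6% of all genes. Against sham, 3 were higher in vehicle mice (26.6% of all genes) and 4 in Anakinra mice (25.1%). Their sum was 12.98 to 15.99 TPM in sham, 19.6 to 27.0 in vehicle and 24.3 to 32.9 TPM in Anakinra mice. The r of Ctsk with this sum was 0.602 with group means removed and 0.241 over the 20 TBI mice. The part of fibroblasts in the level of Ctsk was not tested.

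**Figure D4:**
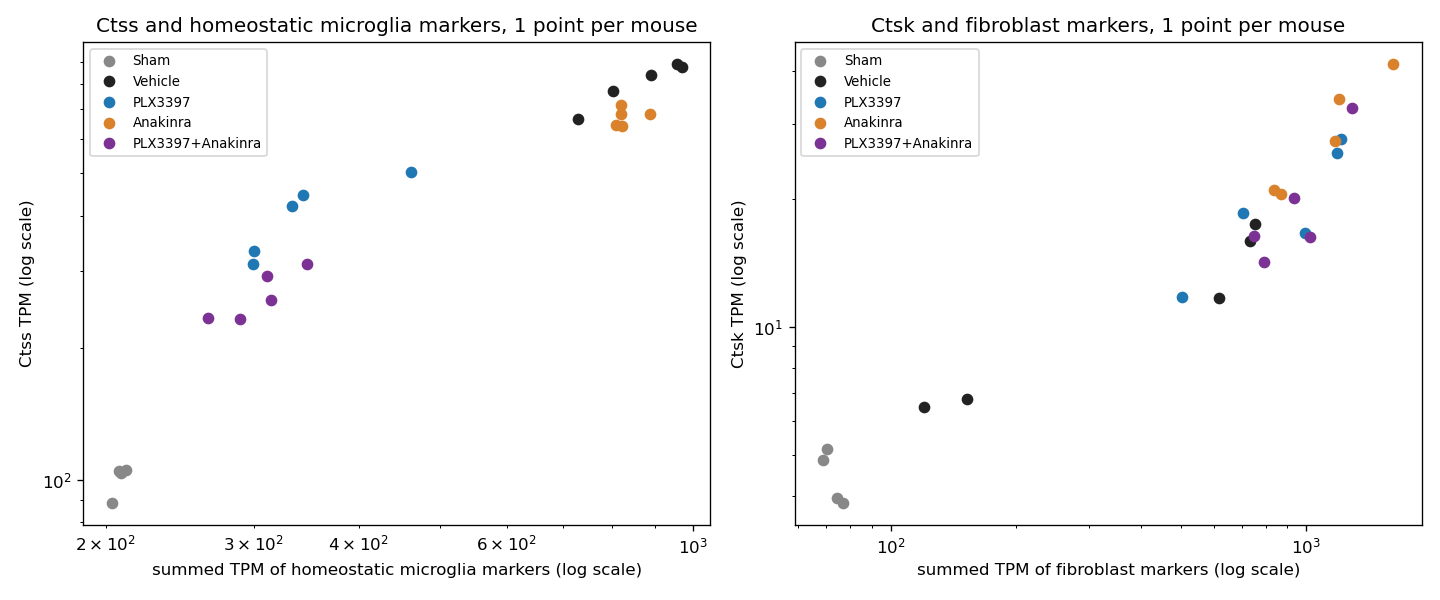
Ctss against the summed TPM of 8 homeostatic microglia markers (left) and Ctsk against the summed TPM of 8 fibroblast markers (right), 1 point per mouse, both axes on log scales, coloured by group. The PLX3397 and PLX3397+Anakinra mice sit at the lower left of the vehicle mice on the left, and 2 vehicle mice with the least Ctsk sit near the sham mice on the right.

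Other lists moved too. All 5 red cell genes were lower in both PLX3397 groups, against 6.66% and 9.6% of all genes. They summed to 606 to 1072 and 725 to 951 TPM, against 1507 to 4406 in vehicle. Their part in the cathepsin differences was not tested. Of 6 neuron markers, 6 were lower in vehicle than in sham (27.7% of all genes), and 4 were higher in the combination than in vehicle (7.88%). Astrocyte markers had 6 of 6 higher after injury and 1 lower in the combination, oligodendrocyte markers 5 of 6 and 0, and endothelial markers 5 of 6 and 0. Over all genes, 26.6% were called higher after injury and 9.6% lower in the combination. Few lymphocyte and neutrophil markers passed the filter: 2 of 8 for neutrophils, 1 of 8 for T and NK cells and 1 of 5 for B cells (Cd79b, lower in the combination). Of the 5 regional markers, only Tbr1 was called lower in vehicle than in sham, at 37.7 and 75.3 TPM (27.7% of all genes). It alone was called higher than in vehicle after PLX3397 (log2 difference 0.25, 3.23% of all genes). The same held in the combination (0.36, 7.88% of all genes).

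Of 13 further cathepsins, 1 passed the filter. This was Ctso, at 26.6 ± 2.14 TPM in sham and 43.8 ± 2.81 TPM in vehicle mice (limma adjusted p = 8.01e-10), with a log2 difference of -0.18 after the combination (limma adjusted p = 0.0314). In every group 9 or 10 of the 13 were listed at 0 in all libraries.

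Of 14 cathepsin inhibitors, 10 were tested, and the injury raised 9 (26.6% of all genes) and lowered 1, Cst6 (27.7%). Cst7, cystatin F, which acts on Ctsc in immune cells, rose from 0.38 to 43.3 TPM, a log2 difference of 5.00 (SE 0.17, limma adjusted p = 1.44e-17). The combination lowered 4 of the 10 (9.6% of all genes) and PLX3397 lowered 2, Cst7 and Ctla2b (6.66%), with 0 after Anakinra (0.0463%). The 4 were Ctla2b at -1.39, Cst7 at -0.91, Cstb at -0.52 and A2m at -0.47 on the log2 scale. Cst3, cystatin C, the most abundant inhibitor, had 5057 TPM in vehicle and 4463 TPM in PLX3397+Anakinra mice, which was not called (limma adjusted p = 0.0765).

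Among 32 other lysosomal enzymes and cofactors, 28 rose and 2 fell with the injury, the latter Neu1 and Gaa. Over all genes, 26.6% were called higher and 27.7% lower with the injury. PLX3397 lowered 23 (6.66% of all genes), the combination 26 (9.6%) and Anakinra 0 (0.0463%). The median log2 difference was -0.44 in the combination, against 0.014 over all genes. Ifi30, the thiol reductase of antigen processing, was at -1.42, Acp5 at -1.46 and Grn at -1.24. Of 19 membrane and acidification genes, the injury raised 11 and lowered 6, against 27.7% of all genes called lower. The combination lowered 10 (9.6% of all genes), with Laptm5 at -1.57 and Cd68 at -1.27. It raised 2 (7.88% of all genes), the proton pump subunits Atp6v0c and Atp6v0d1. Both had been lowered by the injury, at -0.30 and -0.24. Of 10 genes of lysosomal sorting and the MiT/TFE factors, 7 rose with the injury and 5 were lower in the combination, Nagpa at -0.50 and Tfec at -0.50. All 7 genes of the MHC class II route, which Ctss serves, rose with the injury, and 6 fell in both PLX3397 groups. H2-Aa was 29.0 ± 8.31 TPM in vehicle and 6.21 ± 1.84 TPM in PLX3397+Anakinra mice, and Cd74, the invariant chain, 44.9 ± 14.8 and 9.86 ± 1.85 TPM.

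Ctsk and Ctss, which moved apart, lie close together on chromosome 3. In RefSeq (GRCm38.p6), Ctsk lies at chr3:95499210-95509387 and Ctss at chr3:95526786-95556405, with 17398 bases between them that hold the gene model Gm40096. Arnt, next to Ctsk on the other side, had group means of 33.0 to 37.4 TPM and was not called in any treatment comparison with vehicle. The other members lie apart: Ctsa and Ctsz on chromosome 2, Ctsc and Ctsd on 7, Ctsh on 9, Ctsl on 13, Ctsb on 14 and Ctsf on 19. No stretch of 31 bases in the GENCODE transcripts of Ctsk or Ctss occurred in transcripts of another gene, nor did any member share one with another member. For Ctsd, 33.2% of such stretches occurred in the overlapping model Gm49369, and how the counting treated these is not given in the sources used here.

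Of the 10 genes, 8 had a RefSeq promoter window, and Ctsb and Ctsh had none. The motifs below were searched on both strands in the 250 bases before each start. CACGTG, the E-box found in promoters of lysosomal genes, was in a window of Ctsa, Ctsd, Ctsf and Ctsl and in 6.02% of all 32851 windows. The Ctsa match was in a window inside the gene's span, and the Ctsa window before that span had 0. The Ctsl window also lay inside the span of its gene. GAGGAAGT, bound by the myeloid factor PU.1, was in that of Ctsc and in 2.44% of all. TGAGTCA, the AP-1 site, was in 0 of the members' windows and in 4.46% of all. CCAAT was in those of Ctsf and Ctsz (33.8% of all) and GGGCGG in those of Ctsc, Ctsd, Ctsf, Ctss and Ctsz (32.7% of all). The windows overlap no measurement of binding, and a match is a description of letters. The stretches below, printed 5′ to 3′ on the gene's strand with any of these motifs in capitals, show the most abundant member, Ctsf as the member that was not called, the member with GAGGAAGT, and the close pair Ctss and Ctsk.
Ctsd, chr7:142387903-142388077, minus strand: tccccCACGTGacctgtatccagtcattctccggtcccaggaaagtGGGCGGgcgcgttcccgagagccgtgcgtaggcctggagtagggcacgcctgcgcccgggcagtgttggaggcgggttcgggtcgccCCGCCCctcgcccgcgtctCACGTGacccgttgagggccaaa
Ctsf, chr19:4855065-4855150, plus strand: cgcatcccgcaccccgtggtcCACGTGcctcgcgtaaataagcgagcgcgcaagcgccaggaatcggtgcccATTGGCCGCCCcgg
Ctsc, chr7:88277925-88278023, plus strand: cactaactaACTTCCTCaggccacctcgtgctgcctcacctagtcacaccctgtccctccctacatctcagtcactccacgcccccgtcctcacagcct
Ctss, chr3:95526666-95526785, plus strand: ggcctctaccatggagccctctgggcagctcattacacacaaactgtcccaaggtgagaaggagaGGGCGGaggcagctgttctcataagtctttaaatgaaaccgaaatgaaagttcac
Ctsk, chr3:95499090-95499209, plus strand: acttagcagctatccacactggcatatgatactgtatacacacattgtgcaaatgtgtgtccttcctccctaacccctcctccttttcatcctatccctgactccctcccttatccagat
CACGTG was present in a window of Ctsa, Ctsd and Ctsl, which rose with the injury, and of Ctsf, which was not called. For Ctsa and Ctsl that window lay inside the gene's span. The part of CACGTG in these levels was not tested.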

How the data were processed

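RNA from 24 male mice was sequenced by the authors from polyA-selected libraries (paired-end). Per the methods, reads were mapped and quantified in CLC Genomics Workbench, and the labels give GRCm38 as the build. The deposited values are TPM, scaled by the authors to a sum of 1000000 per library. Counts and depth were not used here, so depth is unknown and no counting interval is given. A second deposited table holds the same TPM rounded, and a filtered table with the authors' own p-values and F columns was not used. Genes whose mean over the libraries reached 0.5 TPM were tested with limma 3.58.1 (trend) in R 4.3.3 on log2(TPM + 1) with all 24 libraries in 1 fit, for 10 pairwise comparisons, the F-test and the interaction, with Benjamini-Hochberg adjustment. The pseudocount of 1 TPM understates changes of low genes. Members, gene lists and tests were chosen with earlier results of these data known. From each list, up to 4 called genes with the largest change in the combination were named, except 1 that is not reported here. Each library is 1 mouse. Some animal numbers were shared between vehicle mice and mice given PLX3397, alone or with Anakinra, and these were not treated as pairs. Every vehicle replicate name ends in B, and no other does. What the B marks is not known here, so it cannot be told apart from vehicle treatment. Alternatives were another pseudocount, filter, scaling, table or test, the criteria of the study, and leaving out each mouse. The fit was tested on simulated data.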

Additional observations from a re-analysis of the deposited data

Results flagged for a closer look

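Sham mouse J07 had 88.6 TPM of Ctss, below the other 3 sham mice at 104 to 105 TPM, and its gap to the nearest of them was 0.921 of the range of the group. Of 50 sets of values (10 genes in 5 groups) examined in this way it was the only 1, and chance flags about 1 in 20. All sham mice lay below every injured mouse for Ctss.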

How the results depend on the processing

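No call changed direction under any alternative, but some were lost. The call of Ctsk in the combination against vehicle was lost with no filter, after rescaling, with only the 2 compared groups and with equal-variance statistics (adjusted p = 0.084, 0.0543, 0.0834 and 0.246) and by exact permutation (p = 0.0635), and equal-variance statistics also ended those of Ctsh in PLX3397 against vehicle (adjusted p = 0.079) and Ctsk in vehicle against sham (adjusted p = 0.0538). The number of cathepsins called between Anakinra and vehicle (1) was 0 with a pseudocount of 0.1 TPM, with no filter, after rescaling by the median ratio, with only the 2 compared groups in the fit and with equal-variance statistics on TPM. It was 2 by unadjusted p and by exact permutation, and 0 to 1 when 1 mouse was left out. Between the combination and PLX3397 (1) it was 6 by unadjusted p, 4 by exact permutation, 0 with only the 2 compared groups, 0 with equal-variance statistics, 0 by the criteria of the study and 0 to 2 when 1 mouse was left out. The interaction had 0 and 3 by unadjusted p. The shares of all genes by unadjusted p and by exact permutation are not given here. The criteria of the study ask for a ratio above 2 and a difference above 4 TPM. By them 1 cathepsin was called lower for PLX3397 against vehicle (0.932% of all genes) and 4 for the combination against vehicle (1.55%). For the combination against Anakinra 5 were called lower (1.55%), and for PLX3397 against Anakinra 0 (0.724%). These criteria are stricter on size by construction. For the others the cause was not tested. Rescaling moved the median of all genes by less than 0.1. For vehicle and PLX3397 mice with a shared animal number, deviations from the group means correlated at r = 0.173, -0.134 and -0.0656. These few values cannot decide whether such mice were paired. The replicate block on shared animal numbers called Ctsl lower after PLX3397 (-0.42, limma adjusted p = 0.0164). Depth is unknown, so what it limits for low members such as Ctsk and Ctsc cannot be given.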
